A study of Mus musculus with 26 samples.

Results

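The dopamine, serotonin and melatonin receptors studied here are G protein-coupled receptors through which these retinal messengers act on neurons. Dopamine, released by amacrine cells, rises with light, and melatonin, made by photoreceptors, rises in darkness. Serotonin reaches developing ganglion cell axons and shapes their wiring. The receptors differ in the G protein they use, so that Drd1 and Htr7 raise cyclic AMP, Drd2, Drd4, the Htr1 class, Htr5a and Mtnr1a lower it, and Htr2c drives phospholipase C.

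The set held 10 genes (Drd1, Drd2, Drd4, Htr1a, Htr1b, Htr1d, Htr2c, Htr5a, Htr7 and Mtnr1a), taken by name from the 14580 genes of the deposited table, where Drd1 is written under its older name. They were read in 26 RNA-seq libraries of sorted retinal ganglion cell pools. Intrinsically photosensitive ganglion cells (ipRGCs), which carry the photopigment melanopsin, were the GFP-positive cells, and conventional ganglion cells (cRGCs) were the GFP-negative cells of the same Thy1-enriched retinal suspensions. The groups were 4 ipRGC and 4 cRGC pools from adult Opn4-Cre/GFP mice (Opn4-Cre+/-;Z/EG+/-, mixed background), 6 and 6 pools from adult Opn4-GFP mice (Opn4-GFP+/-, BL6 background), and 3 and 3 pools from P5 Opn4-GFP mice of that genotype and background. These backgrounds are the labels' own, while the study's text calls both lines mixed. Adults were 27 to 33 days old and the P5 pups 4 to 6 days old. Opn4-GFP is a BAC transgene, in which a large genomic fragment around the melanopsin gene drives GFP, and it marks the M1 to M3 subtypes. In Opn4-Cre/GFP mice, Cre placed at the melanopsin gene switches on GFP, which also marks subtypes with little melanopsin, up to M6. Both reporters miss some ipRGCs, which then fall into the cRGC pools, and each pool joins cells of several mice.

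Values are in CPM, reads relative to a library size that the authors scaled, with a separate set of columns for each age and reporter. Genes without a value in a set are called not listed there, since the authors' methods removed genes under 1 CPM in most libraries of a set. The listed genes did not follow this limit exactly, as 32 of them in adult Opn4-Cre/GFP (Drd4 among these), 123 in adult Opn4-GFP and 84 at P5 were under 1 CPM in most libraries. Of the 10 genes, adult Opn4-Cre/GFP listed 7, adult Opn4-GFP 7 and P5 8, and 5 were listed in all 3 sets (Drd1, Drd2, Htr1b, Htr1d and Htr5a). Drd4 was listed only in adult Opn4-Cre/GFP, Htr7 and Mtnr1a only at P5, Htr1a only in the Opn4-GFP sets and Htr2c only in the adult sets. Of the other 11 genes of these receptor families, Drd5 and Htr2b were listed in adult Opn4-Cre/GFP, Htr2a in adult Opn4-Cre/GFP and at P5, and Htr5b at P5, while Drd3, Htr1f, Htr3a, Htr3b, Htr4, Htr6 and Mtnr1b were listed in no set.

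The libraries held between 3927386 and 44871619 reads of listed genes, and between 16 and 2530 listed genes had no read in a library. More than 1000 listed genes were at 0 in at least 1 library of adult Opn4-GFP pools 2 and 4 and of adult Opn4-Cre/GFP pool 4. Opn4, the melanopsin gene, spanned 820 to 3256 CPM in ipRGCs and 1.87 to 40.4 CPM in cRGCs of adult Opn4-Cre/GFP, 2915 to 9823 and 69.1 to 487 CPM in adult Opn4-GFP, and 1986 to 3360 and 41.2 to 55.7 CPM at P5, so the sort separated the groups in every set. Muller glia genes (14 in the list, all listed in adults) summed, in plain CPM of the recovered reads without the TMM scaling, to 871 to 1582 CPM in ipRGC and 10131 to 42866 CPM in cRGC libraries of adult Opn4-Cre/GFP, and to 649 to 1645 and 10822 to 27437 CPM in adult Opn4-GFP. General ganglion cell genes (16 of 17 listed) summed in the same order of groups to 4960 to 8575 and 920 to 2736 CPM, and to 5042 to 7115 and 724 to 2752 CPM. At P5 the Muller glia sums (10 genes listed) were 447 to 686 in ipRGCs and 434 to 450 CPM in cRGCs. In exact permutation tests of these sums, adjusted over 33 tests, p was 0.0143 for each of both lists in adult Opn4-GFP, 0.0786 for each in adult Opn4-Cre/GFP and 0.287 for each at P5, where no p under 0.1 is possible before adjustment. The adult cRGC pools thus held more glial and less ganglion cell RNA than the ipRGC pools beside every receptor difference given here for adults, and the part of this in the receptor differences was not tested. Amacrine cell genes (9 of 11 listed) summed to 1097 to 2097 CPM in ipRGC and 1939 to 4718 CPM in cRGC libraries of adult Opn4-Cre/GFP (adjusted exact permutation p = 0.135), and to 1447 to 2931 and 2222 to 6485 CPM in adult Opn4-GFP (adjusted exact permutation p = 0.0306).

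At P5 the sums of 3 other lists, on the same plain CPM, were lower in every ipRGC library than in every cRGC library. Amacrine cell genes (8 of 11 listed) summed to 699 to 848 CPM in P5 ipRGCs and 912 to 1137 CPM in P5 cRGCs. Dopaminergic amacrine genes (2 of 4 listed, Slc18a2 and Ddc) summed to 50.7 to 77.8 and 164 to 279 CPM. This sum was almost all Slc18a2, which averaged 64.1 CPM in P5 ipRGCs and 209 CPM in P5 cRGCs on the authors' scaled values. Ddc averaged 1.23 and 1.16 CPM there, and Th was not listed, so the sum is that of 1 gene and not a measure of dopaminergic amacrine cells. Astrocyte genes (3 of 3 listed) summed to 1.01 to 7.67 and 12.4 to 52.0 CPM. Horizontal cell genes (3 of 5 listed) ran the other way, with 29.8 to 49.4 CPM in P5 ipRGCs and 20.9 to 29.5 CPM in P5 cRGCs. Each of these 4 sums had the smallest p that 3 against 3 pools allow in an exact permutation test (0.1, adjusted 0.174). On the authors' scaled values, a scale added after these sums were seen, the first 3 sums stayed apart and those of horizontal cell genes overlapped, while the Muller glia sums separated, with 484 to 705 CPM in P5 ipRGCs and 424 to 436 CPM in P5 cRGCs. The adult amacrine sums, whose ranges met on plain CPM, did not overlap on that scale. The P5 sums moved with the differences of Drd2, Htr1a and Htr5a, and their part in them was not tested.

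The promoters of the 6 genes that passed a test in at least 1 comparison are shown so that the start regions of the genes on which the results turn can be set side by side. Each is the 250 bases before the annotated start (RefSeq, build GRCm38.p6, which is not the build of the deposited counts), read 5′ to 3′. Capitals mark the GC box (GGGCGG, either strand), the binding letters of Sp1-type factors. Where a gene has 2 annotated starts (Drd1 and Htr1d), the one farthest upstream is shown.
Drd1, chr13:54055659-54055908, minus strand: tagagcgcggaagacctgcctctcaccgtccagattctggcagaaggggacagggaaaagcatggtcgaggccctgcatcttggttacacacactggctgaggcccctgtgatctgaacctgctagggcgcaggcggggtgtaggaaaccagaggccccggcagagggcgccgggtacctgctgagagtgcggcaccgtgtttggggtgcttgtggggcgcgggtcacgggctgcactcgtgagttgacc
Drd2, chr9:49340153-49340402, plus strand: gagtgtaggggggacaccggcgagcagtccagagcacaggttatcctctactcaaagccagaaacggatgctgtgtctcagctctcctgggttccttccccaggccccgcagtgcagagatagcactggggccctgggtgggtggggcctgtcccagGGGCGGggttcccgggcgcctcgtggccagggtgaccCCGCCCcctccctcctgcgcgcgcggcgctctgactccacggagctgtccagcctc
Htr1a, chr13:105443443-105443692, plus strand: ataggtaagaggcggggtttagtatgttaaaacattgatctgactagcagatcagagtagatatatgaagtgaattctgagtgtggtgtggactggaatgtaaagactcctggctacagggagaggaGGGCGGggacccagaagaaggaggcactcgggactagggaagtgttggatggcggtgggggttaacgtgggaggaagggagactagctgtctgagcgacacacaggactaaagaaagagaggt
Htr1b, chr9:81633833-81634082, minus strand: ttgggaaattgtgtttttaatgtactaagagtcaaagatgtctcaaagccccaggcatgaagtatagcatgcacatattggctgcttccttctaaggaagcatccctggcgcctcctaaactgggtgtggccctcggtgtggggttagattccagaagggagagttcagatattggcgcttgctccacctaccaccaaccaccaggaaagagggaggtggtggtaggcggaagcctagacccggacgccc
Htr1d, chr4:136423274-136423523, plus strand: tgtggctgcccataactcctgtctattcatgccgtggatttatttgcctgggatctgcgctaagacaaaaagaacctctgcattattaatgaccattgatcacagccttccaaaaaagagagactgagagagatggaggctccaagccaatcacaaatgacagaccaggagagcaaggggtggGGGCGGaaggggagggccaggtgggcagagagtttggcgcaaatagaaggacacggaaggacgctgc
Htr5a, chr5:27841697-27841946, plus strand: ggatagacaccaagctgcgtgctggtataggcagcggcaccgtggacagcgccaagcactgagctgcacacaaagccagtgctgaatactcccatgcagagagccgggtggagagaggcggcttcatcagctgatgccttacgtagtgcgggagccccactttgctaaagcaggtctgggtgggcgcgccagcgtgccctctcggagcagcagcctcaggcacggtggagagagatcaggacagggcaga

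Of the 12 start regions of the 10 genes, 6 held a GC box, against 32.7% of 32851 regions of all genes. Among those printed, Drd2 held 2 matches, Htr1a 1 (beginning 123 bases before the start) and Htr1d 1 (67 bases before the start), while Drd1, Htr1b and Htr5a held none in the windows shown. The T-box core GGTGTGA, of interest because the ipRGC marker Eomes is a T-box factor, was in 0 of the 12 regions and 3.33% of all. The core TGACG of the cyclic AMP response element was in 1 of the 12 (Htr7) and 17.8% of all, and the TATA box TATAAA in 0 of the 12 and 12.4% of all, both strands counted for every motif. No motif searched contains another. Such matches describe the letters only.

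Per kilobase of exon, Drd1 and Htr1d led in adult ipRGCs, as the plot of levels per kilobase shows. The median level of Drd1, the main cyclic AMP-raising dopamine receptor, was 22.2 CPM per kb in adult Opn4-Cre/GFP ipRGCs (11.2 to 30.4), next to 21.8 CPM per kb for Htr1d, a cyclic AMP-lowering serotonin receptor (12.7 to 26.6). In adult Opn4-GFP ipRGCs the medians were 29.3 CPM per kb for Drd1 (20.1 to 79.3) and 16.01 CPM per kb for Htr1d (2.20 to 27.3). Htr1b followed in both adult ipRGC groups, with a median of 7.81 CPM per kb in Opn4-Cre/GFP and 6.39 in Opn4-GFP, and Htr5a came after it with 4.18 and 4.08 CPM per kb. The ranges of Drd1 and Htr1d overlapped in both reporters, so these neighbours in the order did not differ beyond their spread, and the same held for Htr1b and Htr5a in Opn4-GFP, whereas in Opn4-Cre/GFP the lowest Htr1b level (4.98) lay above the highest Htr5a level (4.88). At P5 the ipRGC order began with Htr1b at 7.39, Htr1d at 6.77 and Drd1 at 6.599 CPM per kb, whose ranges overlapped, then Htr5a at 3.97 CPM per kb. In P5 cRGCs, Htr1d (11.4), Htr5a (8.90) and Drd2 (8.83 CPM per kb) overlapped at the top, and Htr7 (0.188) and Mtnr1a (0.117) stood last. In both adult cRGC groups Drd1 had the highest median (22.4 CPM per kb in Opn4-Cre/GFP and 25.8 in Opn4-GFP), with ranges that met those of the gene next in order. The exon lengths come from an mm9 annotation (GENCODE vM1) that may differ from the one used for counting. Htr1b, with a single annotated exon of 1273 bases, would have a lower level per kilobase if the annotation used for counting gave it a longer exon.

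**Figure D1:**
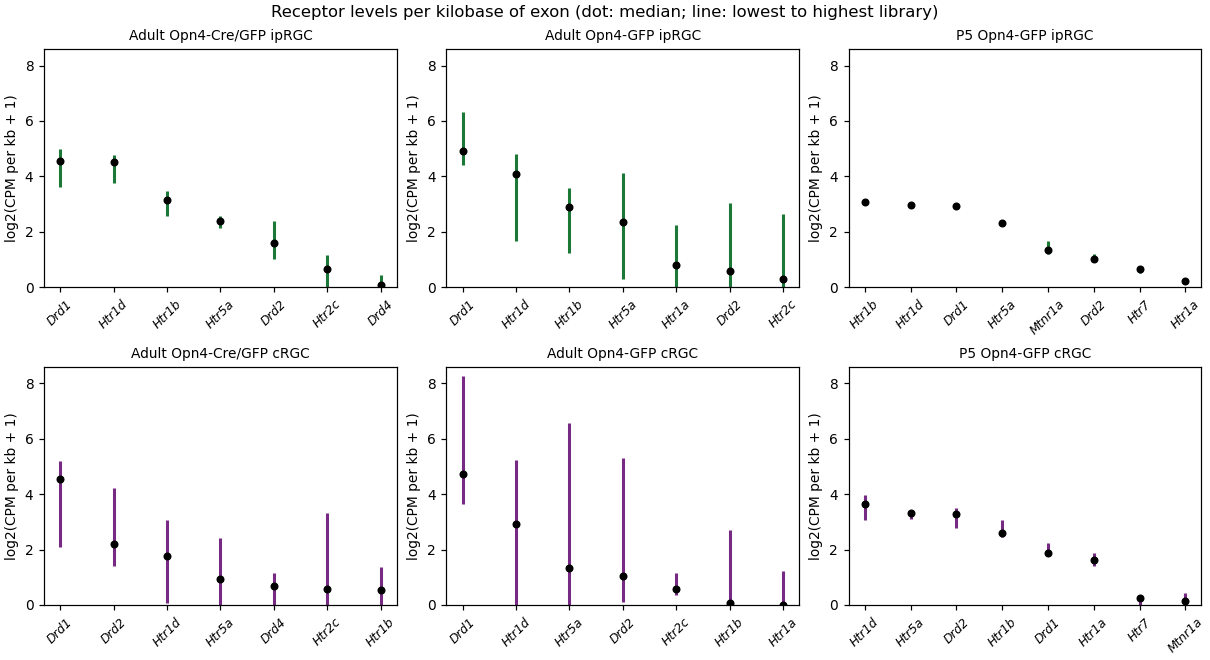
Levels of the listed receptor genes in each group as log2(CPM per kilobase of exon + 1) on the vertical axis, in order of the median, with ipRGC groups in the upper row and cRGC groups in the lower row. Dots are medians and lines run from the lowest to the highest library, and Drd1 leads in all 4 adult groups with a median of 22.2 to 29.3 CPM per kb.

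ipRGCs were set against cRGCs within each age and reporter to ask which receptors mark the melanopsin cells. Genes were called higher or lower at a limma adjusted p below 0.05 (Benjamini-Hochberg over all genes of the set) and a change of more than 2-fold on the log2(CPM + 1) scale, which understates the change of low genes. In adult Opn4-Cre/GFP, 2 of the 7 listed genes were called higher in ipRGCs (Htr1b and Htr1d) and 0 lower, where 1.97% of all 13357 genes were higher, 3.47% lower and 5.44% were called in either direction. An unadjusted p below 0.05 was found for 3 of the 7, and for 17.3% of the 13357. In adult Opn4-GFP, 0 of 7 were called by limma, edgeR or DESeq2, where limma called 1.76% of all 11587 genes higher, 3.39% lower and 5.15% in either direction, and 1 of the 7 (Htr1b) had an unadjusted p below 0.05, as did 17.0% of the 11587. At P5, 3 of the 8 listed genes were called lower in ipRGCs (Drd2, Htr1a and Htr5a) and 0 higher, where 2.27% of all 13677 genes were lower, 1.93% higher and 4.2% were called in either direction. An unadjusted p below 0.05 was found for 5 of the 8, and for 13.3% of the 13677. The median log2 fold change of the listed members was 0.37 for adult Opn4-Cre/GFP mice, 1.32 for adult Opn4-GFP mice and -0.14 for P5 mice, beside 0.03, 0.06 and 0.0037 over all genes. General ganglion cell genes had medians of 2.45, 2.30 and -0.24 in that order of sets. Of these, 11 of 16 were called higher and 0 lower, 8 of 16 higher and 0 lower, and 0 of 17 higher and 3 lower. Their part in the calls of Htr1b and Htr1d was not tested. In RNA of pooled cells, fewer cells that carry a receptor and less of its RNA in each cell cannot be told apart.

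**Figure D2:**
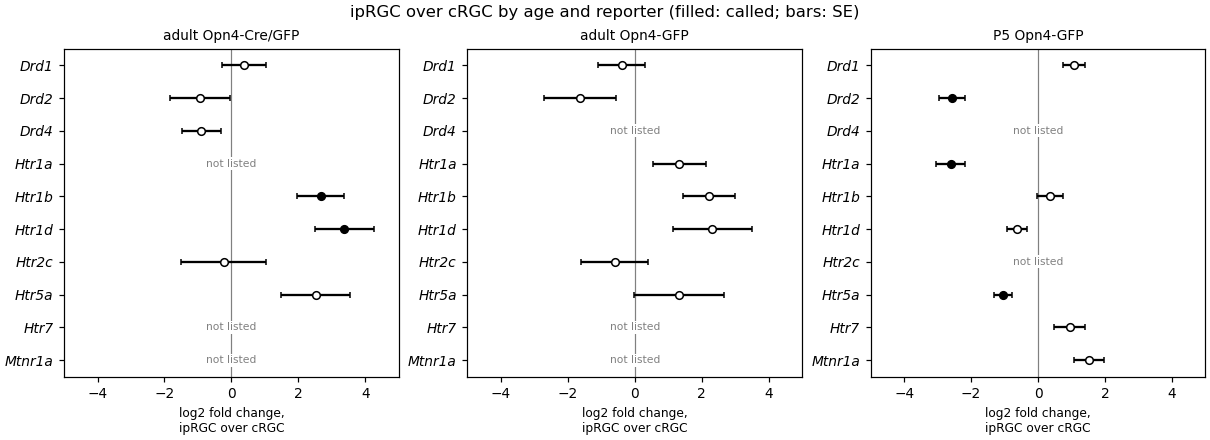
Log2 fold change of ipRGC over cRGC (horizontal axis, log2(CPM + 1) scale) for each receptor gene in adult Opn4-Cre/GFP, adult Opn4-GFP and P5 Opn4-GFP, with bars of 1 standard error (SE). Filled dots passed the call, which were Htr1b and Htr1d on the right in adult Opn4-Cre/GFP and Drd2, Htr1a and Htr5a on the left at P5.

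Drd1 (ENSMUSG00000021478, chromosome 13, 54146555 to 54151027, minus strand, mm9) was at 74.0, 82.6, 107 and 39.4 CPM in adult Opn4-Cre/GFP ipRGC pools 1 to 4, against 11.7, 61.4, 125 and 96.9 CPM in cRGC pools 1 to 4. In adult Opn4-GFP it had 70.8, 103 and 280 CPM in ipRGCs (lowest, median and highest of 6), against 40.7, 91.0 and 1096 CPM in cRGCs. The adult groups overlapped in both reporters. The cRGC spread of adult Opn4-GFP came from pools 2 and 4, at 1096 and 756 CPM, while the other 4 cRGC pools lay between 40.7 and 107 CPM. Neither adult difference passed (log2 fold change 0.37, SE 0.66, limma adjusted p = 0.84 in Opn4-Cre/GFP, and -0.39, SE 0.71, limma adjusted p = 0.856 in Opn4-GFP).

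At P5, Drd1 had 23.3, 25.0 and 21.5 CPM in ipRGC pools 1 to 3, against 12.9, 9.38 and 9.29 CPM in cRGC pools 1 to 3. Every P5 ipRGC pool lay above every P5 cRGC pool, and the means were 23.2 ± 1.75 and 10.5 ± 2.08 CPM (SD, n = 3 each). The log2 fold change was 1.08 (SE 0.33) with a limma adjusted p of 0.0839, which missed the threshold. With the pool number as a block, which pairs the ipRGC and cRGC libraries of a pool, the limma adjusted p was 0.0377 and the gene passed, as it did in DESeq2 (adjusted p = 0.0184).

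Drd2, the cyclic AMP-lowering dopamine receptor (ENSMUSG00000032259, chromosome 9, 49148732 to 49216282, plus strand), was lower in P5 ipRGCs. It had 2.55, 3.32 and 2.20 CPM in P5 ipRGC pools 1 to 3, against 22.5, 26.6 and 14.8 CPM in P5 cRGC pools 1 to 3. The P5 groups did not overlap, and the mean in ipRGCs was 2.69 ± 0.575 against 21.3 ± 5.99 CPM in cRGCs (log2 fold change -2.57, SE 0.40, limma adjusted p = 8.05e-04). In adults Drd2 varied among pools of a group by more than between the groups. Adult Opn4-Cre/GFP pools 1 to 4 had 10.8, 6.86, 3.52 and 2.56 CPM in ipRGCs, against 4.51, 4.25, 13.9 and 45.5 CPM in cRGCs (log2 fold change -0.94, SE 0.89, limma adjusted p = 0.66). Adult Opn4-GFP had 0, 1.22 and 18.4 CPM in ipRGCs (lowest, median, highest), against 0.227, 2.66 and 97.7 CPM in cRGCs (log2 fold change -1.63, SE 1.08, limma adjusted p = 0.494). Drd2 was lower in the ipRGC than in the cRGC pool of the same number in 2 of 4, 5 of 6 and, at P5, 3 of 3 pools. The one adult Opn4-GFP ipRGC library at 0 allows up to 0.188 CPM (3 reads).

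Drd4, a further cyclic AMP-lowering dopamine receptor known from photoreceptors (ENSMUSG00000025496, chromosome 7, 148477929 to 148482362, plus strand), was listed only in adult Opn4-Cre/GFP. Its ipRGC pools 1 to 4 had 0, 0.938, 0.323 and 0 CPM, against 1.57, 1.80, 3.35 and 0 CPM in cRGC pools 1 to 4. The 3 cRGC values above 1 CPM were higher than every ipRGC value, and both groups held a library at 0 (log2 fold change -0.90, SE 0.58, limma adjusted p = 0.477). As no ipRGC value reached 1 CPM, the gene was listed through its cRGC values, so this order of the groups followed in part from its being listed. Only 55 reads in ipRGCs and 217 in cRGCs stand behind these values. Rod genes, a possible second source of this photoreceptor receptor, summed to 0.512 to 308 CPM in ipRGC and 205 to 923.5 CPM in cRGC libraries of the set (plain CPM, 4 of 9 listed), and their part was not tested. Drd5, the cyclic AMP-raising relative of Drd1, averaged 2.04 ± 2.54 CPM in ipRGCs and 3.13 ± 3.64 CPM in cRGCs of adult Opn4-Cre/GFP (SD, n = 4 each, limma adjusted p = 0.941), and shares 1386 exon bases with an antisense transcript.

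**Figure D3:**
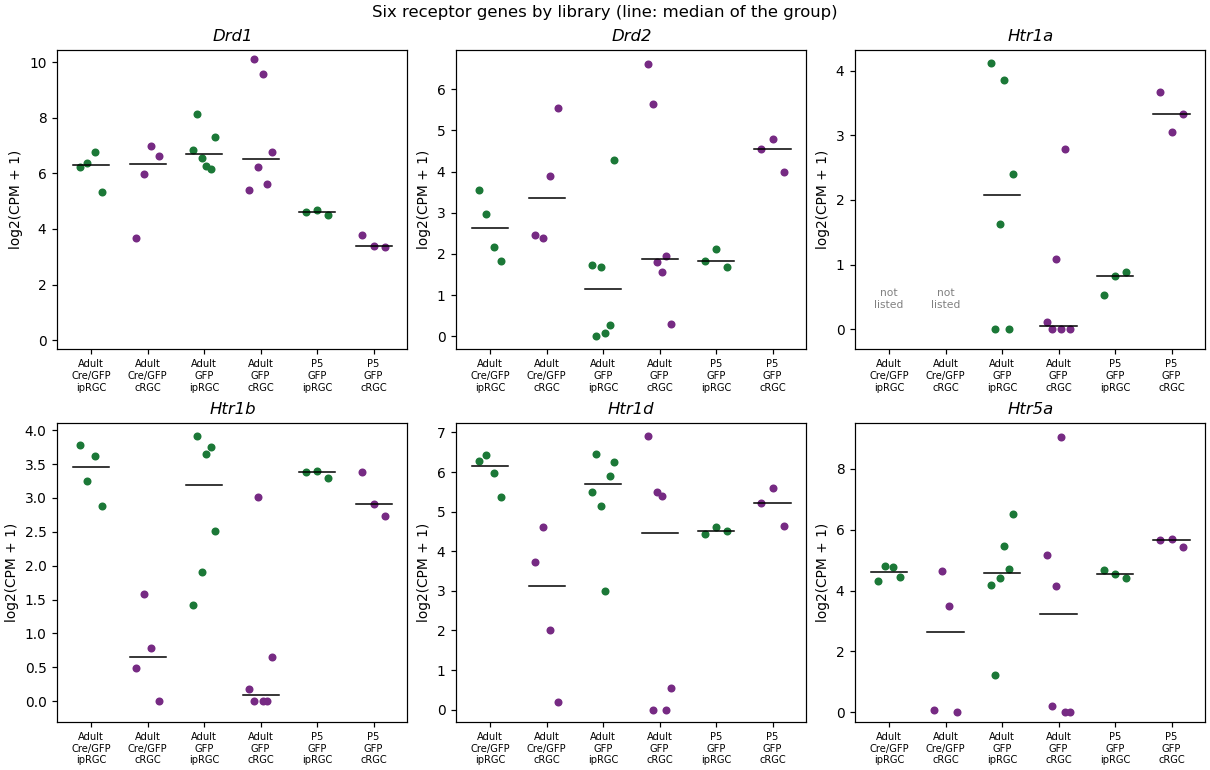
Values of Drd1, Drd2, Htr1a, Htr1b, Htr1d and Htr5a in each library as log2(CPM + 1) on the vertical axis, by group on the horizontal axis (ipRGC green, cRGC purple), with a line at the group median. The 3 P5 pools of a group lie close together (Drd2 2.20 to 3.32 CPM in ipRGCs and 14.8 to 26.6 CPM in cRGCs), while adult cRGC pools spread from 0 to 530 CPM for Htr5a.

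Htr1a, the receptor through which serotonin opens potassium channels and lowers cyclic AMP (ENSMUSG00000021721, chromosome 13, 106233773 to 106238213, plus strand), was lower in P5 ipRGCs. It had 0.438, 0.760 and 0.838 CPM in P5 ipRGC pools 1 to 3, against 11.7, 7.32 and 9.08 CPM in P5 cRGC pools 1 to 3. The groups did not overlap (log2 fold change -2.61, SE 0.43, limma adjusted p = 0.00136). Because all 3 ipRGC values were under 1 CPM, the gene entered the P5 set through its cRGC values, so a difference followed in part from its being listed. In adult Opn4-GFP the order was turned in the means, with 6.03 ± 7.10 CPM in ipRGCs and 1.19 ± 2.36 CPM in cRGCs (SD, n = 6 each). Htr1a was at 16.3, 0, 2.08, 13.5, 0 and 4.30 CPM in ipRGC pools 1 to 6, against 0.0788, 0, 1.11, 0, 5.92 and 0 CPM in cRGC pools 1 to 6. The adult groups overlapped, with 2 ipRGC and 3 cRGC libraries at 0, which allows up to 0.642 CPM, and the difference did not pass (log2 fold change 1.34, SE 0.80, limma adjusted p = 0.43).

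Htr1b, the release-inhibiting serotonin receptor of axon terminals (ENSMUSG00000049511, chromosome 9, 81524950 to 81526222, minus strand), was higher in adult Opn4-Cre/GFP ipRGCs. It had 12.8, 8.55, 11.3 and 6.34 CPM in ipRGC pools 1 to 4, against 0.408, 1.99, 0.724 and 0 CPM in cRGC pools 1 to 4. All 4 ipRGC values lay above all 4 cRGC values, with means of 9.75 ± 2.86 and 0.781 ± 0.861 CPM (log2 fold change 2.67, SE 0.70, limma adjusted p = 0.0363). Since 3 of the 4 cRGC values were under 1 CPM, the gene was listed mainly through its ipRGC values, and a difference followed in part from its being listed. The call was lost with the pool as a block (limma adjusted p = 0.0501) and in edgeR's quasi-likelihood test (adjusted p = 0.191), and in 6 of 8 refits that left out 1 library, among which the adjusted p ran from 0.0279 to 0.114. It held in DESeq2 (adjusted p = 0.00933).

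In adult Opn4-GFP, Htr1b spanned 1.69, 8.13 and 14.1 CPM in ipRGCs (lowest, median, highest), against 0, 0.0657 and 7.06 CPM in cRGCs. The ipRGC value was the higher in 5 of 6 pools, and the exception was pool 3, with 2.76 CPM in ipRGCs and 7.06 CPM in cRGCs. The log2 fold change was 2.22 (SE 0.77, limma adjusted p = 0.104), and without cRGC pool 3 it was 2.69 with a limma adjusted p of 0.0351. That refit left out the library that went against the difference, so it is no support for it. Apart from pool 3 the cRGC values were at most 0.567 CPM, so Htr1b was listed here mainly through its ipRGC values. A difference thus followed in part from its being listed. At P5, Htr1b had 9.41, 9.50 and 8.80 CPM in ipRGC pools 1 to 3, against 9.39, 6.52 and 5.66 CPM in cRGC pools 1 to 3, which overlapped (log2 fold change 0.35, SE 0.39, limma adjusted p = 0.846). Its ipRGC means were 9.75, 7.87 and 9.24 CPM in adult Opn4-Cre/GFP, adult Opn4-GFP and P5, while its cRGC means were 0.781, 1.29 and 7.19 CPM in that order of sets, each set having its own scaling. The Htr1b exon shares 852 of its 1273 bases with the antisense transcript D430036J16Rik, and no source used here says whether strand entered the counting, so reads of the pair cannot be told apart. D430036J16Rik itself had 18.2, 4.76, 11.02 and 13.3 CPM in adult Opn4-Cre/GFP ipRGC pools 1 to 4, against 0.0291, 1.70, 0.381 and 8.59 CPM in cRGC pools 1 to 4 (log2 fold change 2.25, SE 0.86, limma adjusted p = 0.167), and its part in the Htr1b difference was not tested.

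Htr1d, a close relative of Htr1b that also lowers cyclic AMP (ENSMUSG00000070687, chromosome 4, 135979439 to 136000313, plus strand), was higher in adult Opn4-Cre/GFP ipRGCs. It had 77.3, 85.1, 62.0 and 40.6 CPM in ipRGC pools 1 to 4, against 12.3, 23.6, 3.05 and 0.148 CPM in cRGC pools 1 to 4. The groups did not overlap, and the means were 66.3 ± 19.6 and 9.77 ± 10.6 CPM (log2 fold change 3.38, SE 0.87, limma adjusted p = 0.0334). The lowest cRGC value came from pool 4, a single-run pool with over 1000 listed genes at 0, and without both libraries of that pool the log2 fold change was 2.78 (limma adjusted p = 0.0392). The call was lost in edgeR's quasi-likelihood test (adjusted p = 0.218) and in 5 of 8 refits without 1 library (limma adjusted p from 0.0119 to 0.113).

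In adult Opn4-GFP, Htr1d was at 7.05, 51.2 and 87.4 CPM in ipRGCs (lowest, median, highest), against 0, 20.9 and 118 CPM in cRGCs. The ipRGC value was the higher in only 3 of 6 pools and the groups overlapped (log2 fold change 2.32, SE 1.18, limma adjusted p = 0.329). At P5 it had 20.7, 23.6 and 21.7 CPM in ipRGC pools 1 to 3, against 36.5, 47.2 and 23.9 CPM in cRGC pools 1 to 3. Each P5 ipRGC value lay under each P5 cRGC value, but the lowest cRGC value was within 1 CPM of the highest ipRGC value and the difference did not pass (log2 fold change -0.63, SE 0.30, limma adjusted p = 0.396).

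Htr5a, a receptor of the inhibitory G protein class found mainly in brain (ENSMUSG00000039106, chromosome 5, 28168487 to 28181626, plus strand), was lower in P5 ipRGCs. It had 24.7, 22.1 and 20.4 CPM in P5 ipRGC pools 1 to 3, against 49.6, 51.0 and 42.0 CPM in P5 cRGC pools 1 to 3. The groups did not overlap, with means of 22.4 ± 2.13 and 47.5 ± 4.87 CPM (log2 fold change -1.05, SE 0.26, limma adjusted p = 0.0301). Its size was close to the 2-fold limit, and 5 of 6 refits without 1 library lost the call (log2 fold change -1.14 to -0.99, limma adjusted p from 0.0375 to 0.128). In adult Opn4-Cre/GFP, Htr5a had 19.0, 27.2, 26.1 and 20.6 CPM in ipRGC pools 1 to 4, against 0.0582, 24.2, 10.4 and 0 CPM in cRGC pools 1 to 4. It was the higher in ipRGCs in 4 of 4 pools but the groups overlapped through cRGC pool 2 (log2 fold change 2.52, SE 1.03, limma adjusted p = 0.206). In adult Opn4-GFP it spanned 1.32, 22.8 and 90.8 CPM in ipRGCs (lowest, median, highest), against 0, 8.47 and 530 CPM in cRGCs (log2 fold change 1.32, SE 1.35, limma adjusted p = 0.706). The ipRGC means were 23.2 ± 4.05, 33.0 ± 31.4 and 22.4 ± 2.13 CPM in the 3 sets, and the cRGC value of 530 CPM was that of pool 4, also the second highest for Drd1.

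Htr2c, the serotonin receptor that signals through phospholipase C (ENSMUSG00000041380, chromosome X, 143397056 to 143631820, plus strand), was listed in adults only. It had 5.24, 11.6, 5.43 and 0 CPM in adult Opn4-Cre/GFP ipRGC pools 1 to 4, against 0, 84.7, 8.80 and 0.148 CPM in cRGC pools 1 to 4. In adult Opn4-GFP, 3 of 6 ipRGC libraries were at 0 and the others at 4.28, 15.4 and 48.8 CPM, against 2.55, 4.67 and 11.7 CPM in cRGCs (lowest, median, highest). All 6 cRGC libraries thus held reads while 3 of 6 ipRGC libraries did not, and the groups overlapped. Neither difference passed (log2 fold change -0.23, SE 1.27, limma adjusted p = 0.957 in Opn4-Cre/GFP, and -0.60, SE 1.0, limma adjusted p = 0.843 in Opn4-GFP). The related Htr2a averaged 4.58 ± 5.64 CPM in ipRGCs and 0.959 ± 1.56 CPM in cRGCs of adult Opn4-Cre/GFP, and 3.98 ± 1.86 and 6.29 ± 2.60 CPM at P5 (limma adjusted p = 0.52 and 0.75). Htr2b averaged 1.37 ± 1.70 CPM in ipRGCs and 4.37 ± 4.01 CPM in cRGCs of adult Opn4-Cre/GFP (limma adjusted p = 0.517), and shares 252 exon bases with Psmd1 on the other strand.

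Htr7, a serotonin receptor that raises cyclic AMP (ENSMUSG00000024798, chromosome 19, 36033224 to 36131997, minus strand), was listed at P5 only. It had 1.39, 2.18 and 1.89 CPM in P5 ipRGC pools 1 to 3, against 0.886, 0 and 0.641 CPM in P5 cRGC pools 1 to 3. Mtnr1a, the melatonin receptor that lowers cyclic AMP (ENSMUSG00000054764, chromosome 8, 46154491 to 46173710, plus strand), had 1.97, 3.32 and 2.30 CPM in P5 ipRGC pools 1 to 3, against 0.177, 0 and 0.534 CPM in P5 cRGC pools 1 to 3. Both genes were above 1 CPM in every ipRGC pool and below it in every cRGC pool, so they entered the set through their ipRGC values and a difference followed in part from their being listed. Neither passed (Htr7 log2 fold change 0.94, SE 0.46, limma adjusted p = 0.402, and Mtnr1a 1.52, SE 0.45, limma adjusted p = 0.0747). The values rest on 60 and 11 reads for Htr7 and on 84 and 6 reads for Mtnr1a in ipRGCs and cRGCs, and the library at 0 allows up to 0.343 CPM. Htr5b, the relative of Htr5a, averaged 1.11 ± 0.851 CPM in P5 ipRGCs and 2.23 ± 0.521 CPM in P5 cRGCs (limma adjusted p = 0.662).

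**Figure D4:**
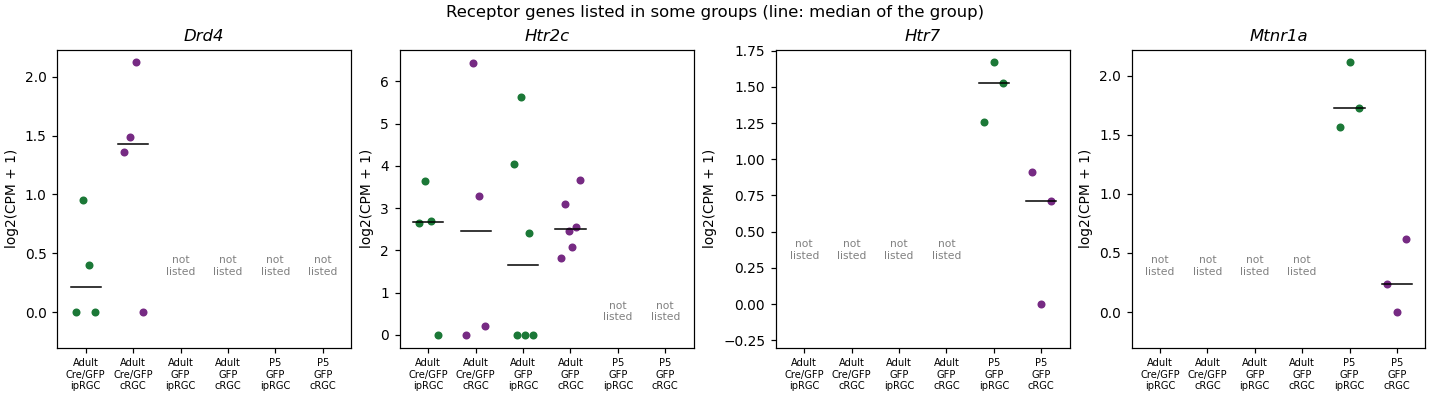
Values of Drd4, Htr2c, Htr7 and Mtnr1a in each library as log2(CPM + 1) on the vertical axis, by group (ipRGC green, cRGC purple), with a line at the group median and groups without listed values marked. Htr7 and Mtnr1a lie at 1.39 to 3.32 CPM in the P5 ipRGC pools and at 0 to 0.886 CPM in the P5 cRGC pools.

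The change with age was read in the Opn4-GFP pools, adult against P5, after one scaling over all 18 libraries, for the 6 members listed at both ages. Values of the age comparison are CPM on that joint scale, on which the median gene was lower in adults by 0.24 (log2) in ipRGCs and 0.34 in cRGCs. Drd1 was the one member called higher with age, in cRGCs, where 3.32% of all 11236 genes were called higher, 2.88% lower and 6.2% in either direction. In ipRGCs 0 of 6 members were called by limma, where 1.14% of all genes were (0.837% higher and 0.303% lower), 1 member (Drd1) had an unadjusted p below 0.05, as did 8.47% of all genes, and edgeR called 0 and DESeq2 1 (Drd1).

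Drd1 had 71.4, 117 and 287 CPM in adult ipRGCs (lowest, median, highest of 6), against 22.6, 23.7 and 20.3 CPM in P5 ipRGC pools 1 to 3. It had 44.2, 93.4 and 1123 CPM in adult cRGCs, against 12.01, 8.92 and 9.08 CPM in P5 cRGC pools 1 to 3. In both cell types every adult library lay above every P5 library. The log2 fold change, adult over P5, was 2.43 (SE 0.83, limma adjusted p = 0.229) in ipRGCs and 3.86 (SE 0.83, limma adjusted p = 0.00377) in cRGCs. The fit used a spread shared by the ipRGC and cRGC groups of both ages. The SE and p in ipRGCs thus also carry the spread of the cRGC libraries. Without pools 2 and 4, whose libraries had over 1000 listed genes at 0, the change was 2.31 in ipRGCs with a limma adjusted p of 0.0059, and 2.66 in cRGCs with a limma adjusted p of 4.80e-04. In all 18 refits that left out 1 library Drd1 stayed called in cRGCs (log2 fold change 3.31 to 4.25). The difference of the age changes between the cell types was -1.43 (SE 1.17, limma adjusted p = 0.9997).

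**Figure D5:**
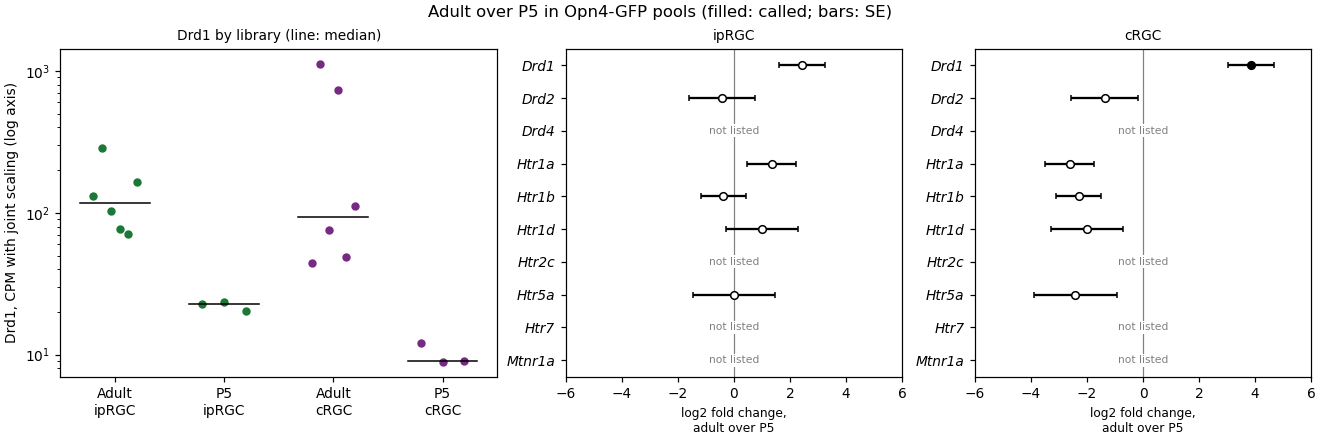
Left, Drd1 in each Opn4-GFP library (CPM with joint scaling, log axis, lines at medians), and middle and right, the log2 fold change of adult over P5 with bars of 1 SE for the 6 members listed at both ages in ipRGCs and in cRGCs. Drd1 in cRGCs is the one filled, called point (3.86), and adult Drd1 values start at 71.4 CPM in ipRGCs and 44.2 CPM in cRGCs, above all P5 values.

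Beside the rise of Drd1 in cRGCs, Muller glia genes were higher in adult cRGCs (9 of 10 tested, median log2 fold change 6.48) and general ganglion cell genes were lower (12 of 16 tested, median -3.86). In ipRGCs, 1 of 10 Muller glia genes was higher and 1 lower, and 0 of 16 ganglion cell genes were called, while 5 of 8 amacrine cell genes were higher (median 4.02), as were 7 of 8 in cRGCs (median 4.69). The part of these in the Drd1 change was not tested. In the adult Opn4-Cre/GFP pools, which have another scaling and reporter, Drd1 averaged 75.9 ± 28.1 CPM in ipRGCs and 73.9 ± 49.0 CPM in cRGCs (SD, n = 4 each).

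The other 5 members fell short of a call with age, and in limma all 5 had a negative log2 fold change in cRGCs. The median over all genes was also negative there (-0.34), and the share of all genes with a negative change was not counted. Htr1a had 0, 0.0428 and 6.05 CPM in adult cRGCs (lowest, median, highest), against 6.96, 8.87 and 10.9 CPM in P5 cRGCs, with no overlap (log2 fold change -2.62, SE 0.87, limma adjusted p = 0.0769). As Htr1a entered the P5 set through its cRGC values, this fall followed in part from its being listed. Htr1b had 0, 0.0713 and 7.13 CPM in adult cRGCs, against 5.53, 6.20 and 8.72 CPM in P5 cRGCs (log2 fold change -2.30, SE 0.81, limma adjusted p = 0.0968). Htr1d, Htr5a and Drd2 changed by -2.01, -2.42 and -1.37 in cRGCs (SE 1.28, 1.47 and 1.19, limma adjusted p from 0.405 to 0.595). For these genes the direction depended on the model, as edgeR and DESeq2 gave positive, uncalled changes. Their mean CPM was not lower in adult cRGCs, with 35.6 against 34.1 at P5 for Htr1d, 94.5 against 45.2 for Htr5a and 27.3 against 20.2 for Drd2. The low adult cRGC medians of all 5 members stood beside the fall of ganglion cell genes given above, whose part was not tested.

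In ipRGCs the log2 fold changes, adult over P5, of these 5 were 1.35 for Htr1a (SE 0.87), 0.995 for Htr1d (SE 1.28), 0.01 for Htr5a (SE 1.47), -0.38 for Htr1b (SE 0.81) and -0.43 for Drd2 (SE 1.19), with limma adjusted p from 0.754 to 0.999. Htr1a had 0, 3.39 and 18.7 CPM in adult ipRGCs (lowest, median, highest), against 0.425, 0.720 and 0.792 CPM in P5 ipRGC pools, so the adult range enclosed the P5 range. Htr1b had 1.93, 8.28 and 14.4 CPM in adult ipRGCs, against 8.32, 9.0025 and 9.14 CPM at P5. Whether the ipRGC to cRGC difference changed with age was tested as an interaction, where 0.792% of all genes passed (0.125% higher and 0.667% lower, or 14 and 75 genes, against 22 and 46 without the TMM scaling) and 0 of 6 members did in limma, edgeR or DESeq2. The smallest p was that of Htr1a, for which the difference was larger by 3.96 (log2, SE 1.23) in adults, with an unadjusted limma p of 0.00357 and a limma adjusted p of 0.215. Htr1a was listed at P5 through its cRGC values, and in adult Opn4-GFP more ipRGC than cRGC values were above 1 CPM. The direction of this interaction thus followed in part from the gene being listed in both sets.

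The reporters were compared in adults, Opn4-Cre/GFP against Opn4-GFP, for the 6 members listed in both sets. Reporter and labelled strain background cannot be told apart here. In ipRGCs 0 of 6 members passed in limma, edgeR or DESeq2 and 0 had an unadjusted p below 0.05, where limma called 0% of 11441 genes (257 at an unadjusted p below 0.05), edgeR 0 and DESeq2 10. In the test of whether the ipRGC to cRGC difference depended on the reporter, 0 of 6 members passed and 0 had an unadjusted p below 0.05, where limma called 0% (272 at an unadjusted p below 0.05). So the calls of Htr1b and Htr1d in Opn4-Cre/GFP alone are not shown to differ from Opn4-GFP.

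Genes that make, carry or respond to these messengers were taken as fixed lists. Over all genes, 1.97% were called higher and 3.47% lower in ipRGCs of adult Opn4-Cre/GFP. These shares were 1.76% and 3.39% in adult Opn4-GFP and 1.93% and 2.27% at P5. With age they were 3.32% and 2.88% in cRGCs and 0.837% and 0.303% in ipRGCs. With so few genes in a list, a count of 1 is not read as a result about the list. At P5, 2 of 8 tested genes of amine synthesis, transport and breakdown were lower in ipRGCs, the serotonin transporter Slc6a4 (6.11 ± 4.69 against 27.0 ± 8.22 CPM, log2 fold change -2.15, limma adjusted p = 0.0105) and the vesicular monoamine transporter Slc18a2 (64.1 ± 21.0 against 209 ± 54.6 CPM, -1.71, limma adjusted p = 8.20e-04). In adults none of these genes was called between cell types by limma (0 of 6 in Opn4-Cre/GFP and 0 of 4 in Opn4-GFP). With age 1 gene of the list was called, Slc18a2, which was lower in adult than in P5 cRGCs (log2 fold change -5.54, limma adjusted p = 2.79e-04). Th, the dopamine-synthesis enzyme that defines dopaminergic amacrine cells, was not listed at P5 and reached at most 23.1 CPM in adult ipRGCs and 29.3 CPM in adult cRGCs.

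Of 12 G protein alpha subunits tested, 0 were higher and 1 lower in adult Opn4-Cre/GFP ipRGCs, 1 higher and 0 lower in adult Opn4-GFP and 2 higher and 0 lower at P5. Gnai1, an inhibitory subunit that couples Drd2 and the Htr1 class, was higher in ipRGCs at P5 (593 ± 93.1 against 211 ± 25.3 CPM, log2 fold change 1.48, limma adjusted p = 3.05e-04) and in adult Opn4-GFP (320 ± 80.7 against 79.6 ± 55.9 CPM, 2.24, limma adjusted p = 0.0058). Gna14, of the phospholipase C-activating class, was higher at P5 (36.2 ± 13.01 against 0.13 ± 0.114 CPM, log2 fold change 4.98, limma adjusted p = 2.68e-06). Its P5 cRGC values reached at most 0.214 CPM, so it was listed there through its ipRGC values. The Gna14 difference thus followed in part from its being listed. Gnai2, also an inhibitory subunit, was lower in adult Opn4-Cre/GFP ipRGCs (log2 fold change -2.22, limma adjusted p = 0.0201). With age, in cRGCs, Gnai2 was higher (2.17, limma adjusted p = 0.0349) and Gnal, a stimulatory subunit that couples Drd1 in striatum, was lower (-3.22, limma adjusted p = 0.00806).

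RGS proteins speed the end of G protein signals, and their calls ran both ways, with 2 of 15 higher and 0 lower in adult Opn4-Cre/GFP ipRGCs, 2 of 13 higher and 2 lower in adult Opn4-GFP, and 1 of 15 higher and 1 lower at P5. Rgs4, which shortens signals of inhibitory G proteins, was higher in ipRGCs in all 3 sets, with log2 fold changes of 4.27, 4.38 and 1.18 in adult Opn4-Cre/GFP, adult Opn4-GFP and P5 (limma adjusted p = 7.76e-05, 2.63e-06 and 0.00405). Rgs17 was higher in both adult sets (2.69 and 2.84, limma adjusted p = 0.00248 and 0.00117). Rgs6 was lower in adult Opn4-GFP ipRGCs (-4.63, limma adjusted p = 0.00208), and Rgs8 was lower there (-2.31, limma adjusted p = 0.0169) and in P5 ipRGCs (-1.51, limma adjusted p = 0.0119). With age, Rgs8 was higher (2.86, limma adjusted p = 0.0105) and Rgs17 lower in cRGCs (-2.24, limma adjusted p = 0.00496). In cRGCs Rgs4 was lower in adults than at P5 (log2 fold change -4.21, limma adjusted p = 8.82e-07). It was the one gene of these pathway lists whose cell type difference changed with age (3.25, limma adjusted p = 0.00934). In that test 10 of 10 Muller glia genes were called lower and 2 of 16 general ganglion cell genes higher. The latter fell with age in cRGCs by a median of -3.86. The part of cell content in Rgs4, and in the other adult cell type and cRGC age calls of these lists, was not tested.

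Of the protein kinase A genes, Prkar1b, a regulatory subunit, was higher in adult Opn4-Cre/GFP ipRGCs (1.84, limma adjusted p = 0.0284), the 1 call of the list between cell types. With age Akap5, a kinase anchor, was lower in both ipRGCs and cRGCs (-4.59 and -4.08, limma adjusted p = 0.0288 and 0.0197), and Pkia, a kinase inhibitor, was lower in cRGCs (-1.91, limma adjusted p = 0.0316). Of the phosphodiesterases, which break down cyclic nucleotides, 3 of 14 were lower in P5 ipRGCs (Pde1c, Pde3a and Pde1b), 1 of 13 in adult Opn4-Cre/GFP (Pde10a) and 0 of 14 in adult Opn4-GFP. Pde3a was higher in adults than at P5 in ipRGCs and cRGCs (3.003 and 2.17, limma adjusted p = 0.00481 and 0.0186). Adenylyl cyclases and phospholipase C beta genes had 0 calls between cell types in each set, and Adcy1 was lower with age in cRGCs (-3.88, limma adjusted p = 1.20e-05).

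Of the other amine receptors, Adra2a was called higher in ipRGCs in every set. Its cRGC values ran from 0.0873 to 0.990 CPM in adult Opn4-Cre/GFP and from 0 to 2.19 CPM in adult Opn4-GFP. In Opn4-Cre/GFP it was thus listed through its ipRGC values, and in adult Opn4-GFP mainly so. A difference in these adult sets followed in part from its being listed. Adra2a, an inhibitory adrenergic receptor, was at 40.8 ± 24.4 CPM in ipRGCs and 0.463 ± 0.426 CPM in cRGCs of adult Opn4-Cre/GFP (log2 fold change 4.66, limma adjusted p = 0.00228), 133 ± 119 and 0.451 ± 0.858 CPM in adult Opn4-GFP (6.22, limma adjusted p = 5.80e-05), and 77.5 ± 16.9 and 14.8 ± 2.90 CPM at P5 (2.30, limma adjusted p = 8.66e-05). Adra1a, Adra2c and Chrm2 were also higher in P5 ipRGCs (log2 fold changes 2.88, 1.79 and 2.05), 4 of 10 tested genes of that list in all. With age Adra2a was lower in cRGCs (-3.50, limma adjusted p = 0.00818).

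The genes whose pattern over the 26 libraries was most like that of a member are given as a description, since libraries of a group share age, sort and cell content. Over 10490 genes with a mean of at least 5 CPM, Pearson correlation of log2(CPM + 1) placed Nrxn3 (0.895), Slc12a5 (0.859) and Plekhb2 (0.851) nearest to Drd1. Nearest to Htr1b were Pgr (0.893), Coro2a (0.885) and Zcchc12 (0.867). Rgs7 was nearest to both Htr5a (0.860) and Htr1d (0.773), followed by Zfp711 (0.820) and Xkr4 (0.809) for Htr5a and by Grin3a (0.762) and Nrn1 (0.741) for Htr1d. The gene nearest to Drd2 was Dapk1 (0.774).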

How the data were processed

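RNA of sorted ganglion cell pools was amplified (Nugen Ovation), made into TruSeq libraries and sequenced as single-end reads of 50 bases. Per the labels and the study's methods, the authors clipped and filtered reads, aligned them to mm9 with TopHat2, made counts per gene with HTSeq and removed genes under 1 CPM in most libraries with edgeR (no versions given in the sources used here). Deposited values are a scaled signal, CPM of a library size that the authors scaled with TMM, separately in 3 sets of columns. Whole reads were recovered from it for 100.0% of values within 0.01. The deposited read counts after quality filtering gave run numbers for 24 libraries, and 2 of their entries match no sample. The authors' columns of fold changes and p-values, and the deposited gene lists made from them, were not used.

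Of 1911 blank gene symbols, 1885 were filled from the mm9 annotation. limma 3.58.1 (trend) was fitted on log2(CPM + 1) over all genes of a set (R 4.3.3), with calls at an adjusted p below 0.05 and over 2-fold, or adjusted p alone for interactions. Age and reporter fits used recovered reads with joint TMM scaling and a spread shared by all groups of the fit. edgeR 4.0.16, DESeq2 1.42.0, other pseudocounts and filters, no TMM scaling, a block on pool number and leaving out libraries were alternatives, and the fits were tested on simulated data. Sums of marker lists were compared with two-sided exact permutation tests. The members, lists and rules were chosen with earlier results of these data known. All members are named, and from the pathway lists those called in a comparison.

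Per the study's methods both cell types were sorted from one suspension as matched samples, and libraries of one number were taken as one sort, which the labels do not state. Deviations from group means correlated over 0.1 in 3 of 3 pairs at P5 (mean 0.212), 2 of 6 in adult Opn4-GFP (mean 0.0582) and 1 of 4 in adult Opn4-Cre/GFP (mean 0.123). The library of the other cell type that correlated best had the same number for 6 of 6 libraries at P5. This held for 7 of 12 in adult Opn4-GFP and 8 of 8 in adult Opn4-Cre/GFP. Nothing in the labels says that replicates are separate litters, so p-values measure the spread between these pools. A library at 0 allows up to 3 reads, 0.0626 to 0.658 CPM, for counting error only, and amplified reads are not independent molecules.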

Additional observations from a re-analysis of the deposited data

Results flagged for a closer look

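In 6 of 28 groups of 4 to 6 libraries tested, the highest library of a receptor gene stood apart from the others by Dixon's criterion. Chance alone meets it in about 1 of 20 groups if values are normally distributed, which CPM with zeros and a long upper tail are not. The share of groups flagged over all listed genes was not counted, so the receptor genes are not shown to hold more outliers than other genes. Drd2 was at 18.4 CPM in adult Opn4-GFP ipRGC pool 6, next to 2.33 CPM in the nearest library. Htr1a was at 5.92 CPM in adult Opn4-GFP cRGC pool 5, next to 1.11 CPM, on 27 reads. Htr1b was at 7.06 CPM in adult Opn4-GFP cRGC pool 3, next to 0.567 CPM. Without this library, which went against it, the adult Opn4-GFP difference passed (limma adjusted p = 0.0351), which is no support for the difference.

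Htr2c was at 48.8 CPM in adult Opn4-GFP ipRGC pool 3, next to 15.4 CPM, and at 84.7 CPM in adult Opn4-Cre/GFP cRGC pool 2, next to 8.80 CPM. Htr5a was at 530 CPM in adult Opn4-GFP cRGC pool 4, next to 35.3 CPM, on 4629 reads.

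Htr1d and Htr5a were higher in the ipRGC library of every adult Opn4-Cre/GFP pool (log2 fold change 3.38 and 2.52) and lower in that of every P5 pool (-0.63 and -1.05). These sets differ in age, reporter and labelled strain background, and the difference between them was not tested. The share of all listed genes with such a turn was not counted, so receptor genes are not shown to turn more often than other genes.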

How the results depend on the processing

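Of 879 refits of a member, 807 kept direction and call, 23 lost the call, 11 gained it and 38 changed direction, 0 of these called. Among the counts of members called, 178 of 197 refits were within 1.5 times the first. In adult Opn4-Cre/GFP the count of 2 became 1 with a mean of at least 5 CPM (Htr1d), 1 with the replicate block (Htr1d), 0 in edgeR and 0 in edgeR with the replicate block, and 0 to 2 without 1 library. In adult Opn4-GFP it was 0 to 1 without 1 library (Htr1b, without cRGC pool 3). With age in ipRGCs the count of 0 became 1 in DESeq2 and 1 without the pools with over 1000 listed genes at 0 (Drd1 in both), an alternative chosen after seeing the data. With age in cRGCs the count of 1 became 2 without single-run libraries (adding Htr1a, -2.96), 2 over the genes of all 3 sets (adding Htr1b, -2.32) and 2 without those pools (adding Htr5a, -3.19), and 1 to 2 without 1 library (adding Htr1b without cRGC pool 3 and Htr1a without cRGC pool 5). At P5 the count was 2 to 3 without 1 library. The block on pool number changed the calls of P5 Drd1 and adult Opn4-Cre/GFP Htr1b given above and, in limma, no other.

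The log2 fold changes that turned direction were all uncalled. In adult Opn4-GFP, Htr2c was 0.013 with a pseudocount of 5, 0.9995 in edgeR, 0.9996 in DESeq2, 0.055 without single-run libraries and 0.39 without the pools with many genes at 0, Htr5a was -1.56 in edgeR, -1.58 in DESeq2 and -0.83 without single-run libraries, and Drd1 was 0.72 without those pools and -0.77 to 0.17 without 1 library. In adult Opn4-Cre/GFP, Drd1 was -0.0060 in DESeq2 and -0.34 to 0.76 without 1 library, and Htr2c -1.06 to 1.08 without 1 library. With age in ipRGCs, Htr5a was -0.037 with a pseudocount of 0.5, -0.0011 without TMM, -0.57 without single-run libraries, -0.039 over the genes of all 3 sets and -0.39 to 0.66 without 1 library, and Drd2 was 0.65 in edgeR, 0.67 in DESeq2 and 0.24 without those pools. With age in cRGCs, edgeR and DESeq2 gave Drd2 0.43 and 0.38, Htr1d 0.066 and 0.050, and Htr5a 1.06 and 1.18. In the age by cell type interaction, Htr5a was -0.38 in edgeR and -0.50 in DESeq2, and Drd2 -0.64 in edgeR with the replicate block and -0.44 without single-run libraries. The cause was not tested in these cases.

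Over all genes, higher and lower calls in adult Opn4-GFP numbered 204 and 393, against 74 and 230 in edgeR, 85 and 236 in edgeR with the block and 53 and 148 without single-run libraries. In adult Opn4-Cre/GFP they numbered 263 and 464, against 115 and 315 in edgeR, 47 and 175 with the block as well and 338 and 809 in DESeq2. With age in ipRGCs they numbered 94 and 34, against 69 and 15 in edgeR, 264 and 51 in DESeq2, 65 and 20 without single-run libraries and 242 and 175 without the pools with many genes at 0. With age in cRGCs they numbered 373 and 324, against 275 and 139 in edgeR, 826 and 256 in DESeq2 and 836 and 754 without those pools. Receptor values of a few CPM rest on few reads in the shallower libraries, such as the 27 reads of Htr1a in adult Opn4-GFP cRGC pool 5.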
